A study of Mus musculus with 12 samples.

Results

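The gelatinases and the membrane-type matrix metalloproteinases (MMPs) are the enzymes described here, in mouse femoral head cartilage that was left untreated or was given IL-1α or retinoic acid. They were taken by symbol as Mmp2 and Mmp9, the gelatinases, and Mmp14, Mmp15, Mmp16, Mmp17 and Mmp24, the membrane-type enzymes. These are 7 of the 34509 gene symbols on the array, and every probe under those symbols was used, 12 of 46632 probes. A further membrane-type gene, Mmp25, stands among the other MMPs below and was not detected on any array. Of the 7 genes, 5 had at least 1 probe detected on 4 or more of the 12 arrays, and 7 of their probes entered the statistical tests. Mmp15 and Mmp17 did not pass this filter, and their values are given without a test across all probes.

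Gelatinases digest denatured collagen and basement membrane proteins, and both carry fibronectin-type repeats that bind gelatin. Membrane-type MMPs are held at the cell surface by a transmembrane segment or, in the case of MMP17, by a lipid anchor, and their propeptides are removed inside the cell by furin-like convertases. MMP14 at the surface, with TIMP2 as an adaptor, converts proMMP2 to its active form, while MMP9 is known in skeletal tissue from osteoclasts and from the vascular invasion of the growth plate. All 7 enzymes are made as inactive precursors, so an mRNA level says nothing of enzyme activity.

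Every array held RNA from TS-4/5∆cat mice, which carry in-frame deletions of the exons for the catalytic domains of Adamts-4 and Adamts-5. The untreated controls carried them too, so no group here tests the deletion. Femoral heads from mice 21 days old were cultured 4 to a well and treated for 3 days. They were given nothing, 10 ng/mL IL-1α, an inflammatory cytokine, or 10 µM retinoic acid, a vitamin A metabolite. Both agents drive loss of aggrecan from cartilage. The paper reports that in these mice only retinoic acid, and not IL-1α, raised the remaining aggrecanase (aggrecan-cleaving) activity. Each treatment had 4 arrays, 2 from the Donut line in batch 1 and 2 from the Gertrude line in batch 2, so the effects of batch and line cannot be told apart. The labels describe medium with 10% serum before treatment and treatments in triplicate, whereas the methods describe serum-free medium and separate mice, fewer per treatment than the arrays. Nothing ties an array to an animal, so p-values measure only the spread between arrays, which may be partly technical.

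The arrays differed more by batch than by treatment. Batch 1 arrays detected between 13786 and 14965 probes and batch 2 arrays between 16732 and 19485, the highest being untreated replicate 2. Across probes, arrays of the same treatment and batch correlated at 0.983 to 0.995, those of the same treatment in different batches at 0.868 to 0.902, and those of different treatments in the same batch at 0.932 to 0.968. Of the chondrocyte markers, 8 of 9 were detected, among them Acan, Col2a1 and Sox9. All 8 were lower with retinoic acid, where 17.1% of all probes were. Levels below are log2 intensities after background correction and quantile normalization, a relative scale on which 1 unit is a doubling and the highest value was 14.24. A probe counted as detected on an array at a detection p under 0.05.

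RefSeq promoter sequences on build GRCm38.p6, from 250 bases before the gene start to 50 after it, were at hand for 3 of the 7 genes. Those of Mmp14, which had the largest retinoic acid response of the 5 genes tested, and of Mmp24, which showed no such response on its main probe, are shown to compare their motifs. Capitals mark GC boxes (GGGCGG) and CCAAT boxes on either strand.
Mmp14: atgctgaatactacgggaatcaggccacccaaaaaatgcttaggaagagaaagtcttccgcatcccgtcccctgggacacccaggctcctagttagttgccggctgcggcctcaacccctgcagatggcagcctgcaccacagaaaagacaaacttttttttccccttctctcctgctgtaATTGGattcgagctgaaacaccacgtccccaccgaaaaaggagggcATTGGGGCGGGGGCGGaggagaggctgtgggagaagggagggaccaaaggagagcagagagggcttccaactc
Mmp24: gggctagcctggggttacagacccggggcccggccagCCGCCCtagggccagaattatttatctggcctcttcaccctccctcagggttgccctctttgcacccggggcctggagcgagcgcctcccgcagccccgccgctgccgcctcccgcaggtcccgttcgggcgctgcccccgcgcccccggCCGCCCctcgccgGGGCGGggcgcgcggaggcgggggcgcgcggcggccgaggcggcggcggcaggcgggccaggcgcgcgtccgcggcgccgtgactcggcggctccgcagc
The Mmp14 window is chr14:54431348-54431647 on the forward strand, with 56.0% G or C, and the Mmp24 window is chr2:155775092-155775391, also forward, with 80.0%. Counted in bases from the start, Mmp14 held 2 GC boxes, beginning at -19 and -13, and 2 CCAAT boxes on the reverse strand, at -69 and -23, and the CCAAT box nearer the start and the GC boxes run together in the capitals. Mmp24 held 3 GC boxes, at -213, -63 and -50, and no CCAAT box. The window of Mmp15, chr8:95352046-95352345, held 1 GC box and had 66.0% G or C. Neither an AP-1 site (TGANTCA), a nuclear receptor half-site (AGGTCA) nor a TATA box (TATAAA) was found on either strand of these 3 windows. Over 32851 promoters of the same length, 35.7% held a GC box, 37.4% a CCAAT box, 7.81% the AP-1 letters, 16.3% the half-site and 13.6% the TATA letters. A match is a description of letters and not of a bound site.

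Retinoic acid raised the mRNA of both gelatinases and of Mmp14. On the main probes it lowered Mmp16 by a small amount and gave no call for Mmp24, while the other probes of these genes, given below, differed from this. Mmp14, the cell-surface activator of proMMP2, rose 4.20-fold, Mmp9 rose 2.99-fold and Mmp2 rose 2.02-fold against untreated cartilage. Of the 5 genes tested, 3 were called higher and 1 lower at an adjusted p under 0.05. Over all 18200 probes tested, 18.2% were called higher and 17.1% lower, as 3320 and 3116 probes. Scaling all arrays to a common median instead of matching their quantiles gave 3426 higher and 1796 lower and moved the median of all probes to 0.14, a shift far smaller than the rises of the 3 genes. The median log2 fold change of the 5 genes was 1.01, beside 0.02 over all probes.

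IL-1α raised Mmp9 1.53-fold and on the main probes lowered Mmp16 and Mmp24, while Mmp14 did not pass the test and Mmp2 stood at its untreated level. That was 1 gene called higher and 2 lower of 5, where 15.2% of all probes were called higher and 14.1% lower, as 2767 and 2567 probes. The median of the 5 genes was -0.01, beside 0.02 over all probes.

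With retinoic acid all 5 tested genes stood above their IL-1α level on their main probes, and none was lower. For Mmp16, not detected on any IL-1α array, only a bound is known. The second kept probe of Mmp24 gave 0.35 with overlapping groups and did not pass (limma adjusted p = 0.439). Over all probes 15.2% were higher and 15.8% lower in this comparison, as 2773 and 2883 probes, or 2685 and 1411 with scaling to one median. The median log2 difference of the 5 genes was 0.97, beside -0.03 over all probes. The 3 comparisons share their arrays, so they are given side by side and not as independent support for each other.

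**Figure D1:**
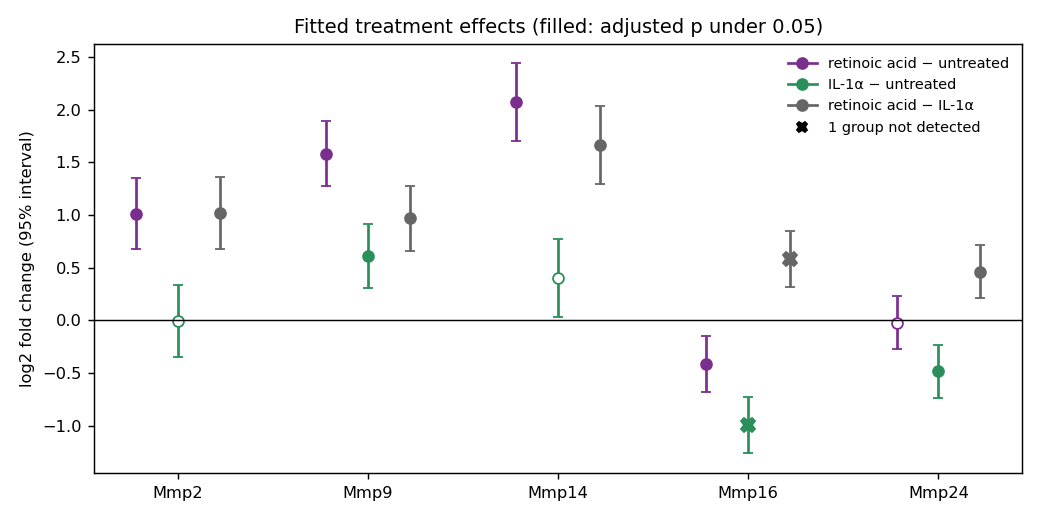
Fitted log2 fold changes of the 5 tested genes (x axis) for the 3 comparisons, from all 12 arrays, with 95% confidence intervals as bars; filled points passed an adjusted p of 0.05, open points did not, and crosses mark a comparison in which 1 group was not detected, so that only a bound is known. The retinoic acid rises of Mmp2, Mmp9 and Mmp14 lie between 1.01 and 2.07, and the IL-1α effects on genes other than Mmp16 between -0.48 and 0.61.

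Mmp2 encodes gelatinase A, a secreted enzyme made by many connective tissue cells. Its probe was detected on all 12 arrays. Untreated cartilage gave 12.39 and 12.45 for batch 1, then 11.94 and 12.004 for batch 2. With retinoic acid the values were 13.18, 13.14, 13.15 and 13.36 in the same order, and with IL-1α they were 12.54, 12.46, 12.03 and 11.72. The retinoic acid arrays therefore all lay above every other array and close together, while IL-1α and untreated arrays overlapped and were lower in batch 2 than in batch 1. Group means were 12.19 ± 0.26 untreated, 12.19 ± 0.38 with IL-1α and 13.21 ± 0.10 with retinoic acid (SD, n = 4). The log2 fold change with retinoic acid was 1.01 (SE 0.16, 95% interval 0.67 to 1.35, limma adjusted p = 2.34e-04). Against IL-1α it was 1.02 (SE 0.16, adjusted p = 2.45e-04), and IL-1α against untreated gave -0.01 with an interval of -0.34 to 0.33 (adjusted p = 0.984). The order of levels was retinoic acid above the other treatments, which did not differ beyond their spread.

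Mmp9 encodes gelatinase B, a secreted enzyme stored in neutrophil granules and abundant in osteoclasts. It was detected on all 12 arrays. The untreated values were 11.45 and 11.61 (batch 1) and 11.75 and 11.54 (batch 2). IL-1α arrays read 12.42, 12.40, 12.12 and 11.86, and retinoic acid arrays 13.07, 13.07, 13.30 and 13.24. No 2 treatments overlapped, and the order was untreated, IL-1α, retinoic acid in both batches. The means were 11.59 ± 0.12, 12.20 ± 0.27 and 13.17 ± 0.12 (SD, n = 4), and all 3 comparisons passed the test. Retinoic acid against untreated gave 1.58 (SE 0.14, 95% interval 1.28 to 1.89, adjusted p = 1.82e-06). IL-1α against untreated gave 0.61 (SE 0.14, interval 0.31 to 0.92, adjusted p = 0.00603), and retinoic acid against IL-1α gave 0.97 (SE 0.14, adjusted p = 1.58e-04).

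Mmp14 encodes MT1-MMP, a transmembrane collagenase. Its main probe was detected on all 12 arrays, and its other probe on none. On the raw scale the untreated intensities of the main probe were 824.5 and 1193 in batch 1 and 4599 and 2064 in batch 2, and those with retinoic acid were 6689 and 5039 in batch 1 and 11676 and 13513 in batch 2. On the log2 scale untreated arrays read 10.57, 10.81, 11.61 and 11.03, IL-1α arrays 11.56, 11.33, 11.49 and 11.26, and retinoic acid arrays 12.89, 12.81, 13.20 and 13.40. The retinoic acid arrays stood apart from all others in both batches. IL-1α arrays lay above untreated arrays in batch 1 and overlapped them in batch 2. The group means were 11.01 ± 0.44 untreated, 11.41 ± 0.14 with IL-1α and 13.08 ± 0.27 with retinoic acid (SD, n = 4). Retinoic acid gave 2.07 against untreated (SE 0.17, 95% interval 1.70 to 2.44, adjusted p = 8.41e-07) and 1.66 against IL-1α (SE 0.17, adjusted p = 6.61e-06). IL-1α gave 0.40 (SE 0.17, interval 0.04 to 0.77), which did not pass (adjusted p = 0.0917, and p = 0.171 by a two-sided exact permutation test of the group means). Without untreated replicate 1 of batch 2, the brightest untreated array, the IL-1α value was 0.57 and passed (adjusted p = 0.0228).

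For each of these 3 genes, which are those called higher, the retinoic acid arrays did not overlap the untreated arrays. The exact permutation p was 0.0286 (two-sided), the smallest that 4 arrays against 4 can give. Exact permutation tests here took no account of batch. The share of all probes without overlap was not computed, so the lack of overlap adds no support to the calls. The highest raw intensity among the 12 probes was 13513, on an array whose brightest probe reached 21630.5, so these probes lay below the top of the scale. Fewer cells of a type and less RNA per cell cannot be told apart in RNA from whole tissue, for this and for every result here.

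**Figure D2:**
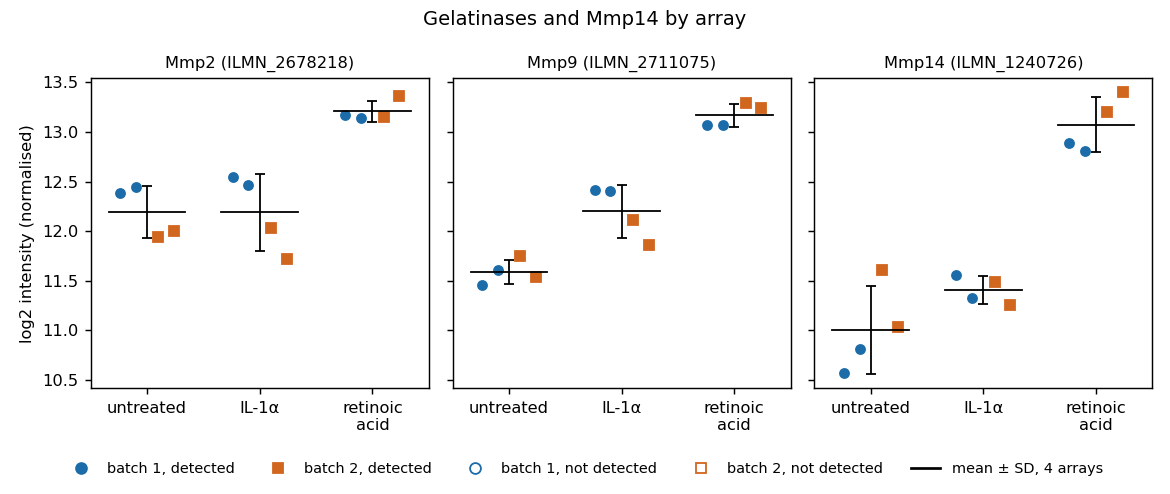
Normalised log2 intensity (y axis) of Mmp2, Mmp9 and Mmp14 on each of 12 arrays by treatment (x axis), with circles for batch 1, squares for batch 2, and lines and bars for the mean ± SD of 4 arrays. All 4 retinoic acid arrays lie above 12.8 for each gene, above every untreated and IL-1α array.

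Mmp16 encodes MT3-MMP, a transmembrane enzyme that can also process proMMP2. Of its 3 probes, 2 were kept and 1 was not detected on any array. The main probe was detected on all 4 untreated and all 4 retinoic acid arrays and on none with IL-1α. The untreated values were 5.66 and 5.74 (batch 1) and 5.99 and 6.23 (batch 2), and those with retinoic acid were 5.50, 5.44, 5.61 and 5.42. The IL-1α values, 4.78 to 5.01, only bound the level from above. Mmp16 was at least 1.57-fold higher in untreated than in IL-1α-treated cartilage, and retinoic acid exceeded IL-1α at least 1.18-fold. These bounds set the mean of the detected group against the higher of the probe's own signal and the lowest detected signal on each IL-1α array. The measured means were 5.90 ± 0.26 untreated, 4.91 ± 0.11 with IL-1α and 5.49 ± 0.09 with retinoic acid (SD, n = 4). The fit gave adjusted p = 7.45e-05 for IL-1α against untreated and 0.0027 for retinoic acid against IL-1α. The IL-1α values in these tests are background readings. These p-values, and that of the other probe with IL-1α below, therefore do not measure the spread of an expression level in that group.

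The fall of Mmp16 with retinoic acid was small, -0.41 (SE 0.12, 95% interval -0.68 to -0.15, adjusted p = 0.0194), though no retinoic acid array reached the lowest untreated array. This call was lost with scaling to one median (adjusted p = 0.209), with normalization within each batch (0.0640), without the terms for batch and replicate (0.122), and without replicate 2 of batch 2 of either the untreated (0.0790) or the retinoic acid group (0.1002). The other kept probe of Mmp16 was detected on 4 untreated, 0 IL-1α and 3 retinoic acid arrays. It gave -0.14 for retinoic acid (adjusted p = 0.417) with overlapping groups, and it was at least 1.15-fold higher in untreated than in IL-1α-treated cartilage (adjusted p = 0.00123). The probes thus matched in being undetected with IL-1α, while the retinoic acid fall passed on the main probe alone; the difference between probes was not tested.

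Mmp24 encodes MT5-MMP, a transmembrane enzyme best known from the nervous system. Its main probe was detected on all 12 arrays, its second on 9 and the remaining probe on 1. Values of the main probe were 9.15 and 8.87 (batch 1) and 8.82 and 9.25 (batch 2) untreated, 8.54, 8.45, 8.37 and 8.81 with IL-1α, and 9.11, 9.13, 8.63 and 9.14 with retinoic acid. Every IL-1α array lay below every untreated array, though the nearest pair, 8.81 and 8.82, almost met. The means were 9.02 ± 0.21, 8.54 ± 0.19 and 9.001 ± 0.25 (SD, n = 4). IL-1α gave -0.48 (SE 0.12, 95% interval -0.73 to -0.23, adjusted p = 0.00812), and retinoic acid gave -0.02 (interval -0.27 to 0.23, adjusted p = 0.913). Retinoic acid was 0.46 above IL-1α (SE 0.12, adjusted p = 0.00874), with overlapping groups and an exact permutation p of 0.0571. The IL-1α call was lost with scaling to one median (adjusted p = 0.0851) and without the terms for batch and replicate (0.148), and the retinoic acid against IL-1α call without those terms (0.144) and without retinoic acid replicate 2 of batch 1 (0.0505).

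The fitted values of the second Mmp24 probe had the opposite sign to those of the main probe against untreated. It was detected on 1 untreated array and on all 4 arrays of each treatment, with means of 5.03 ± 0.54 untreated, 5.78 ± 0.65 with IL-1α and 6.13 ± 0.65 with retinoic acid (SD, n = 4). As 3 of the 4 untreated values lay under the detection limit, the untreated level is known mostly from above. The fit gave 1.10 for retinoic acid (SE 0.31, adjusted p = 0.0146), with overlapping groups and an exact permutation p of 0.0571, and IL-1α gave 0.75 (adjusted p = 0.0904). In batch 1 the treated arrays read 6.30 to 6.64 against 5.03 and 4.75 untreated, while in batch 2 they read 5.13 to 6.01 against 5.79 and 4.55. With retinoic acid against untreated only the second probe passed, and with IL-1α only the main probe. What separates the 2 probes was not tested, so whether Mmp24 is called with either treatment depends on the probe read.

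Mmp17, the lipid-anchored MT4-MMP, was detected on 3 arrays, all of batch 2. These were both retinoic acid arrays, at 5.98 and 5.71, and 1 untreated array, at 5.13. The IL-1α arrays read 4.53 to 4.59 and the batch 1 arrays of every treatment at most 4.89, all undetected. Within batch 2, the Mmp17 level with retinoic acid exceeded that with IL-1α at least 1.74-fold. Mmp15, the transmembrane MT2-MMP, was detected on 1 array, retinoic acid replicate 2 of batch 2, at 5.09. Its other values ran from 4.44 to 4.98, all undetected. For both genes the levels in most arrays are only known to lie under the detection limit.

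**Figure D3:**
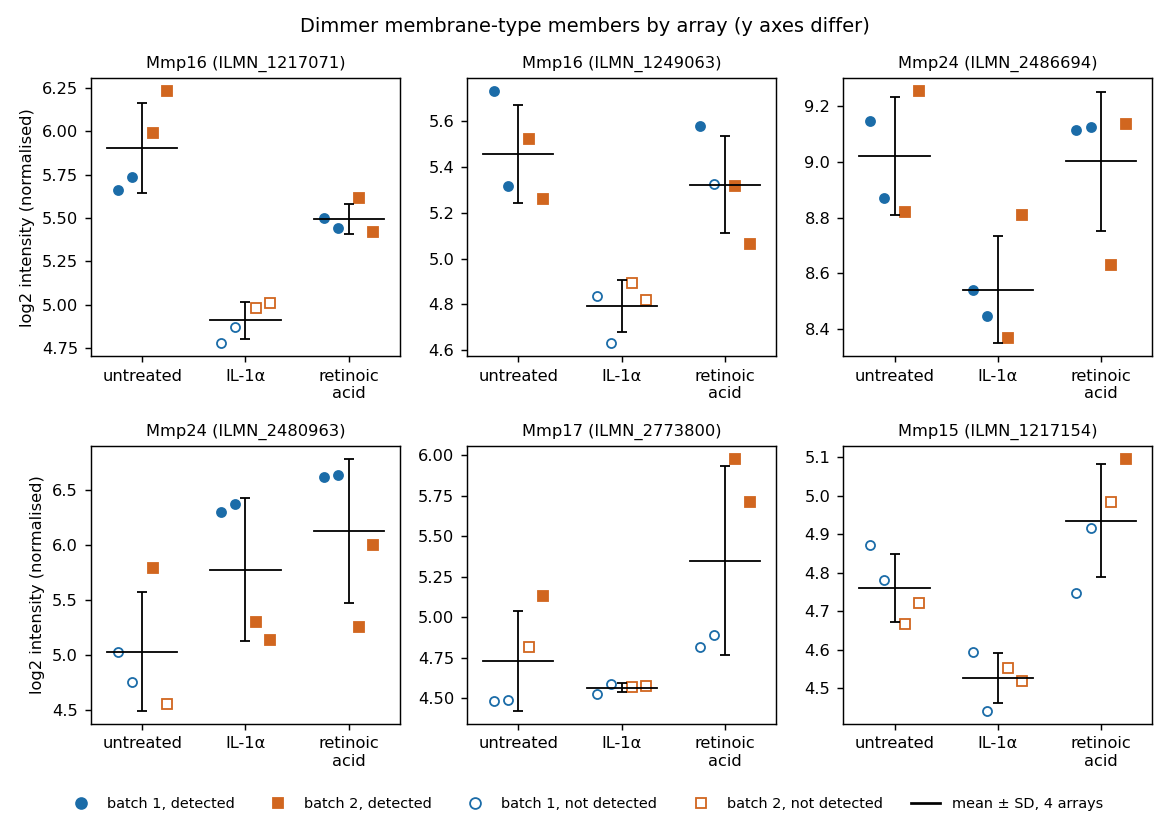
Normalised log2 intensity (y axis, a different range in each panel) of the other membrane-type probes by treatment (x axis), with circles for batch 1, squares for batch 2, open symbols where the probe was not detected, and the mean ± SD of 4 arrays. Mmp16 is open on all 4 IL-1α arrays with both probes, and Mmp17 is filled on 3 arrays, all of batch 2.

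The size of the responses was compared between the batches, which differ in mouse line. Retinoic acid raised Mmp14 by 2.16 in batch 1 and 1.98 in batch 2, Mmp9 by 1.54 and 1.62, and Mmp2 by 0.74 and 1.29. IL-1α gave 0.88 and 0.35 for Mmp9, 0.75 and 0.05 for Mmp14, 0.08 and -0.10 for Mmp2, and -0.52 and -0.45 for Mmp24. The Mmp16 main probe differed by -0.23 and -0.59 with retinoic acid, and was at least 1.18-fold higher untreated than with IL-1α in batch 1 and at least 2.09-fold in batch 2. Retinoic acid against IL-1α was positive in both batches for all 5 main probes, at 1.40 and 1.93 for Mmp14, 0.66 and 1.28 for Mmp9, and 0.63 and 0.29 for Mmp24, and for Mmp16 at least 1.01-fold and 1.39-fold. Every difference called over all arrays on a main probe thus kept its sign in both batches. The calls were made from these same arrays, so a shared sign of the batches adds no support to the calls. How often called probes of the whole array kept their sign is not given here.

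Only Mmp2 showed a treatment effect that differed between batches by the interaction test, for retinoic acid against IL-1α. That difference was 0.66 in batch 1 and 1.38 in batch 2, larger by 0.73 in batch 2 (95% interval 0.28 to 1.17, adjusted p = 0.0434), where 8.76% of all probes were called. The call was lost in 10 of 21 alternatives, among them the fit with the replicate number (adjusted p = 0.0539). For retinoic acid against untreated 0 of the 5 genes and 2.86% of all probes differed between batches, and for IL-1α against untreated 0 genes and 4.82% of all probes. At an unadjusted limma p under 0.05 the counts were 1 and 2 genes. The IL-1α effect in batch 2 minus that in batch 1 was -0.53 for Mmp9 (interval -0.98 to -0.09, adjusted p = 0.154) and -0.70 for Mmp14 (interval -1.27 to -0.13, adjusted p = 0.148), values that did not pass.

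Levels irrespective of treatment also differed. Mmp2 was lower in batch 2 than in batch 1 by a log2 difference of -0.32 (SE 0.12, adjusted p = 0.0208), and Mmp14 was higher by 0.34 (SE 0.13, adjusted p = 0.0317). The Mmp14 call was lost without a filter and without any 1 of 6 arrays, both untreated and both retinoic acid arrays of batch 1, untreated replicate 1 and retinoic acid replicate 2 of batch 2. The Mmp2 call was lost without IL-1α replicate 1 of batch 1 or IL-1α replicate 2 of batch 2. Over all probes 33.4% were called higher and 42.9% lower in batch 2. With scaling to one median, Mmp9, Mmp14, Mmp16 and Mmp24 were called higher in batch 2 and Mmp2 was not called.

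**Figure D4:**
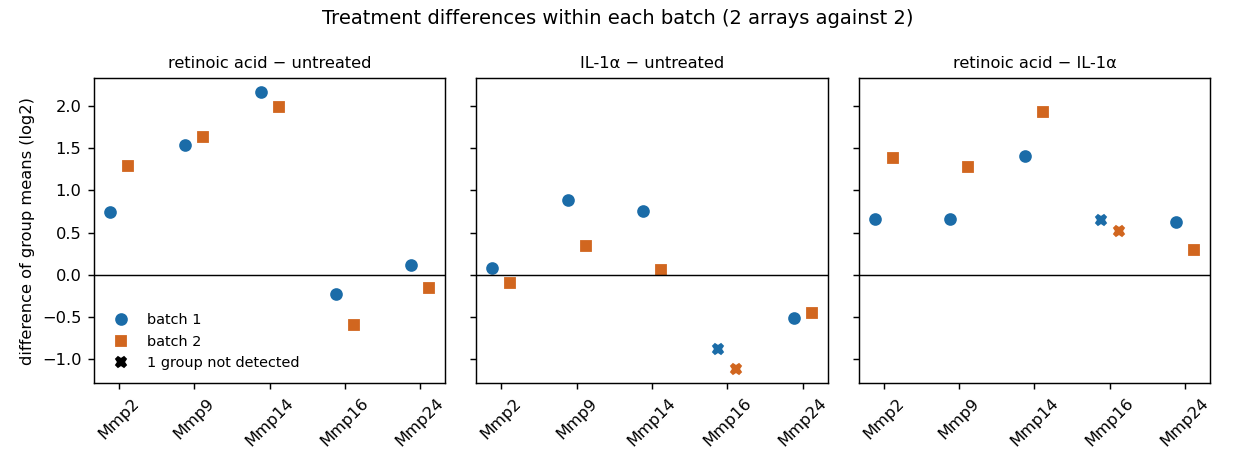
Differences of group means on the log2 scale (y axis) for the 5 tested genes (x axis) within batch 1 (circles) and batch 2 (squares), 2 arrays against 2, in 3 panels for the 3 comparisons, with crosses where 1 group was not detected. The rises with retinoic acid for Mmp2, Mmp9 and Mmp14 are above 0.7 in both batches, and the IL-1α difference of Mmp14 is 0.75 in batch 1 and 0.05 in batch 2.

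The inhibitor list had 8 genes on the array, for TIMPs, Reck and testicans, and 6 were kept. With retinoic acid 1 was higher, the testican gene Spock2, and 3 were lower, beside 18.2% and 17.1% of all probes. No TIMP gene was called higher with retinoic acid, and neither was Reck. With IL-1α 1 was higher and 2 were lower, beside 15.2% and 14.1%. Timp3, the matrix-bound inhibitor of MMPs and aggrecanases, fell by 1.43 with retinoic acid (SE 0.11, adjusted p = 3.71e-07) and by 0.36 with IL-1α (SE 0.11, adjusted p = 0.0228). Timp4 was detected on 2 untreated arrays and on no retinoic acid array, with means of 5.63 and 4.59 (adjusted p = 0.00277). With the other 2 untreated arrays not detected either, no fold is given. Reck, a membrane-anchored inhibitor of gelatinases and MMP14, fell by 0.46 with retinoic acid (adjusted p = 0.0210) and by 0.63 with IL-1α (adjusted p = 0.00512). Spock2, a testican proteoglycan, was detected on all 4 retinoic acid arrays, 1 untreated array and no IL-1α array. It entered the test only through its retinoic acid arrays, and most untreated values lay under the detection limit. The call of a higher level with retinoic acid than untreated (adjusted p = 4.04e-05) is therefore not independent of the filter. Spock2 exceeded its IL-1α level at least 1.52-fold.

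Timp1, which can bind proMMP9, rose by 0.63 with IL-1α (SE 0.15, adjusted p = 0.00694) and gave 0.01 with retinoic acid. Timp2, the adaptor between MMP14 and proMMP2, gave -0.19 with retinoic acid (adjusted p = 0.340) and -0.11 with IL-1α (adjusted p = 0.612). Spock1 and Spock3 were not detected on any array. Scaling to one median left 1 higher and 2 lower with retinoic acid and 1 higher and 1 lower with IL-1α, with 0 called genes changing sign.

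The log2 difference between an enzyme and its inhibitor was taken within each array, which shows unequal change of a pair of probes and not their relative amount. With retinoic acid Mmp14 minus Timp2 rose by 2.26, Mmp9 minus Timp1 by 1.57 and Mmp2 minus Timp2 by 1.20 against untreated, each with no overlap between the groups. Each had an exact two-sided permutation p of 0.0286, the smallest possible when arrays are shuffled without regard to batch, as here. The adjusted p was 0.0514 over 9 such tests, so none passed 0.05. Within batches the changes were 2.58 and 1.93, 1.42 and 1.72, and 1.16 and 1.24. With IL-1α the changes were 0.51 (exact p = 0.171), -0.02 and 0.10, all with overlapping groups. For Mmp9 minus Timp1 the batches differed in sign with IL-1α, 0.50 in batch 1 and -0.54 in batch 2.

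**Figure D5:**
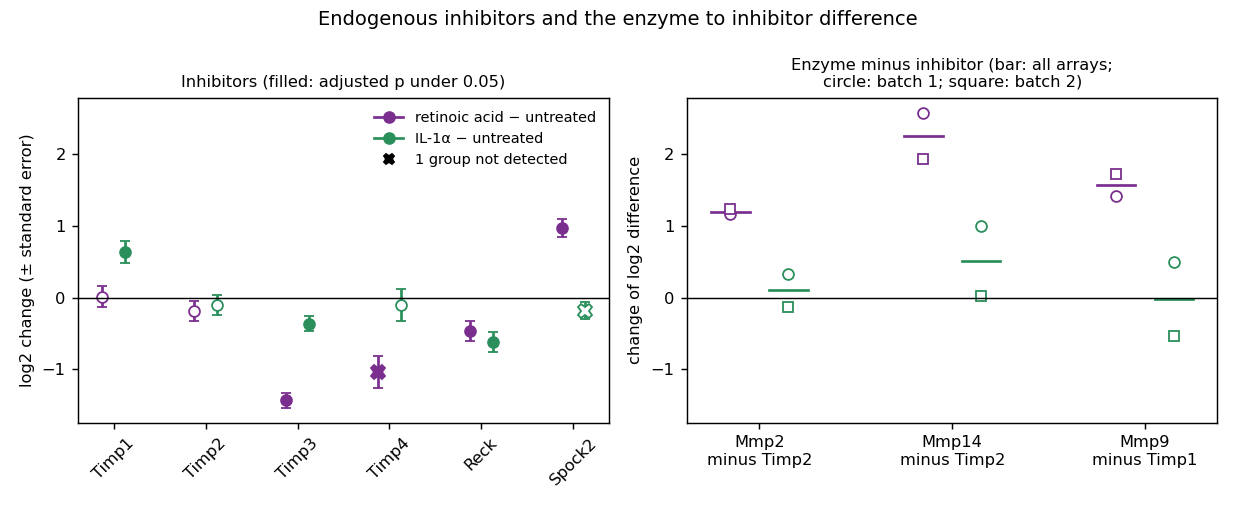
Left, log2 changes of 6 genes of the inhibitor list (x axis), TIMPs, Reck and the testican gene Spock2, with retinoic acid and with IL-1α against untreated. Bars are standard errors, filled points had an adjusted p under 0.05, and crosses mark 1 group not detected. Right, the change of the within-array log2 difference between enzyme and inhibitor (bar, all arrays; circle, batch 1; square, batch 2), where the retinoic acid bars lie at 1.20, 2.26 and 1.57.

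Among 12 genes that activate MMP precursors or control that step, 10 were kept. With retinoic acid 4 were higher and 2 lower, beside 18.2% and 17.1% of all probes. With IL-1α 2 were higher and 2 lower, near the shares of all probes, 15.2% and 14.1%. Mmp10, stromelysin 2, rose by 2.16 with retinoic acid and by 2.79 with IL-1α. Plat, the tissue plasminogen activator, rose by 0.96 with retinoic acid (adjusted p = 9.98e-04) and fell by 0.85 with IL-1α (adjusted p = 0.00342). Plaur, the urokinase receptor, rose by 0.46 and 0.70. Of the convertases, Pcsk7 rose by 0.48 with retinoic acid and gave 0.26 with IL-1α (adjusted p = 0.203), and Pcsk6 fell by 0.81 and 0.52. Furin, which cleaves the propeptide of MMP14, gave -0.38 with retinoic acid (adjusted p = 0.0848) and 0.02 with IL-1α (adjusted p = 0.949).

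Mmp3, stromelysin 1, fell by 2.06 with retinoic acid (adjusted p = 4.63e-05) and gave 0.64 with IL-1α (adjusted p = 0.0851). Mmp13, Plau and Plg passed in neither comparison, with values of 0.16, -0.34 and -0.10 with retinoic acid and 0.05, -0.41 and -0.10 with IL-1α. The Mmp13 means, 13.83 untreated, 13.88 with IL-1α and 13.99 with retinoic acid, lay near the highest value of any probe, 14.24. The Mmp3 mean with IL-1α, 13.96, did too. Rises of these probes may therefore be understated. By qPCR the paper reported higher Mmp-13 mRNA with both agents. Its text places that measurement in cultured chondrocytes and its figure legend in explants, so it does not test the array values. Pcsk5 was detected on 2 arrays and was not kept. The list median was 0.03 with retinoic acid and 0.04 with IL-1α, near the 0.02 of all probes in each.

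The cell-surface partners and uptake receptors of these enzymes, 14 genes, were all kept. With retinoic acid 6 were higher and 2 lower, beside 18.2% and 17.1% of all probes. With IL-1α 5 were higher and 1 lower, beside 15.2% and 14.1%. Cd44, the hyaluronan receptor that docks MMP9 and MMP14, rose by 1.65 with IL-1α and gave 0.01 with retinoic acid. Sdc1 rose by 0.91 with retinoic acid and 0.79 with IL-1α, and Cd151 by 0.66 and 0.56, while Thbs1 rose by 0.61 with retinoic acid. Lcn2, whose product binds MMP9, fell by 0.93 with retinoic acid and rose by 1.04 with IL-1α. Cav1, the coat protein of caveolae, fell by 1.79 and 0.82. It was detected on 2 of the 4 retinoic acid arrays, so the first value is not exact. The list median was 0.31 with retinoic acid and 0.10 with IL-1α. Scaling to one median gave 6 higher and 1 lower with retinoic acid and 4 higher and 1 lower with IL-1α.

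The substrates went down more often than up. Of 20 genes for gelatin-forming collagens, basement membrane and other MMP substrates, 17 were kept. With retinoic acid 2 were higher and 9 lower, beside 18.2% and 17.1% of all probes. With IL-1α 1 was higher and 9 were lower, beside 15.2% and 14.1%. The largest falls with retinoic acid were in Acan (-4.22), Lum (-2.22) and Col3a1 (-1.94), and with IL-1α in Col3a1 (-1.88), Acan (-1.56) and Col1a2 (-1.32). Lum and Col3a1 were detected on 2 of the 4 retinoic acid arrays, and Col3a1 on 2 with IL-1α, so these falls are not exact. Lama5, a laminin chain, rose by 1.22 with retinoic acid, and Tgfb2 rose by 0.53 and 0.49. The medians were -0.61 and -0.50. Scaling to one median gave 2 higher and 8 lower with retinoic acid and 0 higher and 7 lower with IL-1α.

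Of the 16 other MMP genes on the array, 7 were kept and 7 were not detected on any array. Over all probes 18.2% were higher and 17.1% lower with retinoic acid, and 15.2% and 14.1% with IL-1α. With retinoic acid Mmp11 and Mmp10 were higher, by 2.35 and 2.16, and Mmp3 and Mmp12 lower, by -2.06 and -0.89. Mmp12 was detected on 3 untreated, 4 IL-1α and 2 retinoic acid arrays. With IL-1α Mmp10 and Mmp12 were higher, by 2.79 and 0.78, and Mmp23 was lower, by -0.55, a call lost with scaling to one median. The difference between these genes and the gelatinases and membrane-type enzymes was not tested.

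Markers of other cells that make MMP9 or MMP2 also moved between the treatments. Beside all marker counts below stand the shares of all probes, 18.2% higher and 17.1% lower with retinoic acid. With IL-1α these shares were 15.2% and 14.1%. Some counts, such as those of the endothelial list with retinoic acid, lie near them. Of 6 osteoclast markers, 4 were kept; Acp5 (0.85) and Ctsk (0.58) were higher with retinoic acid, and Oscar (0.58) and Ctsk (0.55) with IL-1α, while Calcr and Atp6v0d2 were not detected on any array. The summed normalised intensity of the osteoclast list was 1896 to 5221 untreated, 3743 to 5576 with IL-1α and 3110 to 7540 with retinoic acid. Of 7 macrophage markers, 6 were kept and Itgam was not detected. With retinoic acid 5 were higher, led by C1qb (1.51), C1qa (1.25) and Cd14 (1.21), and with IL-1α Cd14 (2.73) and Cd68 (0.97) were higher and C1qb (-1.82), C1qa (-1.49) and Emr1 (-0.78) lower. Emr1 was detected on 2 arrays of each treatment.

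The macrophage sums ran from 1994 to 3587 untreated, 3876 to 6919 with IL-1α and 3629 to 6249 with retinoic acid. All 8 neutrophil markers were kept, and their sums ran from 9739 to 16187, 16912 to 17796 and 5651 to 14790. With retinoic acid 5 were lower, led by Mpo (-2.10), Elane (-1.45) and Ngp (-1.26), and with IL-1α 0 passed the test in limma (2 at an unadjusted p under 0.05). The neutrophil markers S100a8, S100a9 and Cxcr2 passed with neither treatment against untreated. With scaling to one median, 3 neutrophil markers were lower with retinoic acid and 0 osteoclast markers were higher with IL-1α. The part of these cells in the levels of the gelatinases was not tested.

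Of the chondrocyte markers, all 8 that were kept were lower with retinoic acid. Their sums were 62574 to 74107 untreated, 35418 to 47219 with IL-1α and 10202 to 15469 with retinoic acid, and Matn3 was not detected. The largest falls with retinoic acid were in Matn1 (-5.00), Acan (-4.22) and Hapln1 (-3.33), and 6 of the 8 were lower with IL-1α. Hapln1 was detected on 2 of the 4 retinoic acid arrays, so its fall is not exact. Of 5 hypertrophic markers 4 were lower with each treatment, and Spp1 rose by 0.52 with retinoic acid. Of 6 endothelial markers 1 rose and 1 fell with retinoic acid and 3 fell with IL-1α, led by Pecam1 (-1.23). Of 6 fibroblast and synovial markers 1 rose and 4 fell with retinoic acid and 1 rose and 3 fell with IL-1α, and Pdgfra was higher with retinoic acid (0.95) and lower with IL-1α (-0.88). Of 3 kept osteoblast markers, Sp7 and Col1a1 fell with each treatment, and 0 of 3 erythroid markers passed in either (0 and 0 at an unadjusted p under 0.05). With scaling to one median, 4 chondrocyte markers were lower with IL-1α, 0 hypertrophic markers were higher and 3 lower with retinoic acid, and 2 endothelial markers were lower with IL-1α. That scaling also left 0 endothelial, 3 fibroblast and synovial and 1 osteoblast marker lower with retinoic acid. The part of these changes in the results for the MMPs was not tested.

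The 5 tested genes were last compared in their pattern over the 12 arrays, after the mean of each batch was removed. Mmp9 and Mmp14 had a Pearson correlation of 0.971, Mmp2 and Mmp14 of 0.933 and Mmp2 and Mmp9 of 0.898, while Mmp16 and Mmp24 had 0.710. Between these sets the values ran from -0.278 for Mmp9 and Mmp16 to 0.259 for Mmp2 and Mmp24. The genes of other symbols most like Mmp14 were Bmp7 (0.990), Hes1 (0.989) and 4933407C03Rik (0.985). Those most like Mmp9 were Tnfrsf21 (0.993), Klf9 (0.992) and Rab31 (0.990), and those most like Mmp2 were Plekha6 (0.988), 1810011O10Rik (0.988) and Lypd1 (0.987). For Mmp16 they were Apoe (0.975), AW548124 (0.961) and B3galt6 (0.960), and for Mmp24 LOC238943 (0.967), Wdr68 (0.955) and Ttc5 (0.942). The arrays share their treatments, so correlations over them are descriptions.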

How the data were processed

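RNA of 12 explant cultures was hybridised to Illumina bead arrays. The authors deposited raw probe intensities, neither background-corrected nor normalised, and a detection score per probe and array, a fraction between 0 and 1 that rises with intensity; 1 minus this score was used as the detection p. The bead summary software is not given in the sources used here, and the labels name limma without a version. Symbols are those of the array, and 0 columns lacked a sample. Differences are limited in precision by the number of arrays, 4 per treatment.

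In R 4.3.3 with limma 3.58.1, neqc estimated background from the detection p, quantile normalised and added an offset of 16. A probe was kept where its detection p was under 0.05 on 4 or more arrays (18200 of 46632 probes, 14317 symbols). Compression at the low end by the offset understates changes of dim probes. The linear model (lmFit, eBayes) held treatment and a factor for batch and replicate, after the study's methods, with Benjamini-Hochberg adjustment over all kept probes. A model of 6 treatment by batch means gave the interactions, and one of treatment and batch the batch differences. Functions were tested on simulated data. Each gene is given by its kept probe of highest mean, as the main probe, and every other probe is described. All genes of the inhibitor and activation lists are named, except 1 that is not reported here, and up to 3 rises and 3 falls from each other list. The genes and lists were chosen with earlier results of these data known. A bound sets the bright group's mean against the dim group's, with each dim array at its lowest detected signal or at the probe's signal where that was higher.

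Replicate numbers did not pair the arrays by their deviations from group means, whose correlations were 0.003 to 0.062 in batch 1 and -0.108 to 0.391 in batch 2. Alternatives covered background correction, scaling, offset, filter, batch and replicate terms, arrays in the fit, array weights, other probes and leaving out each array.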

Additional observations from a re-analysis of the deposited data

Results flagged for a closer look

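The main Mmp24 probe read 8.63 on retinoic acid replicate 1 of batch 2, while the other 3 retinoic acid arrays read 9.11 to 9.14, a gap that made up 0.960 of the group's range. Of 21 groups of 4 arrays examined for such a gap, it was the only one found. With so many groups examined, 1 such gap may be chance, and its rate was not computed. Each group also mixes the batches. Without that array the retinoic acid against untreated difference of Mmp24 was 0.042, in place of -0.02, and did not pass (adjusted p = 0.845).

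The rise of Mmp2 with retinoic acid over IL-1α differed between the batches, and so between the Donut and Gertrude lines, by 0.73 on the log2 scale (adjusted p = 0.0434). The call was lost in 10 of 21 alternatives, among them median scaling (0.0667) and the replicate block (0.0539). The rise was 0.66 in batch 1 and 1.38 in batch 2. The mean of the IL-1α arrays in batch 2 minus that in batch 1 was -0.63, that of the untreated arrays -0.45 and that of the retinoic acid arrays 0.10.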

How the results depend on the processing

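With 24 alternatives each, Mmp2, Mmp9 and Mmp14 were called higher with retinoic acid, against untreated and against IL-1α, in all 24, and so was Mmp9 with IL-1α. Against untreated the retinoic acid values ranged from 0.87 to 1.12 for Mmp2, 1.51 to 1.68 for Mmp9 and 1.92 to 2.23 for Mmp14. The IL-1α value of Mmp9 ranged from 0.50 to 0.72, with a highest adjusted p of 0.0487. Removing the replicate block gave the same calls, 4, 3 and 5 genes in the 3 comparisons. The filter changed which genes were called. With detection on at least 3 arrays Mmp17 was added for retinoic acid against untreated (5 genes) and against IL-1α (6), with no filter Mmp15 and Mmp17 were added against IL-1α (7), and with detection on all 12 arrays or at p under 0.01 Mmp16 was not tested, leaving 3, 2 and 4. The number of genes whose retinoic acid against IL-1α effect differed between batches, 1, became 2 with no background correction and with an offset of 50 (Mmp2 and Mmp9), 2 with no filter and with detection on at least 3 arrays (Mmp2 and Mmp17), 0 with median scaling, 0 with the replicate block, and 0 to 2 when leaving out single arrays. For IL-1α against untreated that number, 0, became 2 with median scaling (Mmp9 and Mmp16), 1 with normalization within each batch (Mmp16), and 0 to 1 when leaving out single arrays, the 1 being Mmp14 without untreated replicate 2 of batch 2. Over all probes, median scaling gave 1538 higher and 1566 lower for IL-1α against untreated, and a fit without batch and replicate terms gave 1064 and 1151 for retinoic acid, 621 and 706 for IL-1α, and 1025 and 959 between them. The number of the 5 genes called between batches, 2, became 4 with median scaling and ranged from 1 to 2 without single arrays. Values near 0 that did not pass changed sign. Mmp24 with retinoic acid was 0.21 with median scaling and -0.10 to 0.042 without single arrays (0.002, 0.003, 0.042 and 0.02 where the sign changed), and Mmp2 with IL-1α was 0.049 with median scaling and -0.10 to 0.14 without single arrays (0.005, 0.045 and 0.14 where it changed). The second Mmp24 probe gave 1.10 with retinoic acid, which passed, and 0.75 with IL-1α, which did not, against the sign of the main probe. With IL-1α the log2 difference Mmp2 minus Timp2 ran from -0.12 to 0.36 and Mmp9 minus Timp1 from -0.19 to 0.15 without single arrays (-0.12, -0.12 and -0.11, and 0.14, 0.15 and 0.03, where the sign changed). The cause of these moves was not tested. Nearness to background limits Mmp15, Mmp16, Mmp17 and the second Mmp24 probe.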
